A study of Mus musculus with 4 samples.

Results

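The genes described here are markers of germ cells and of the testis, measured in sorted thymic epithelial cells (TECs). They are 20 genes listed by symbol, which are Prm1, Prm2, Tnp1, Tnp2, Sycp1, Sycp2, Sycp3, Ddx4, Dazl, Zp1, Zp2, Zp3, Odf1, Odf2, Akap3, Ldhc, Pgk2, Acr, Crisp2 and Tcp11, together with every gene on the arrays named Tex or Spata followed by a number. The rule reads gene symbols only. The rule found 55 genes with 88 probes, of 28095 gene names with 41174 probes on the arrays: the 20 listed genes, 17 Tex genes (testis expressed) and 18 Spata genes (spermatogenesis associated). The Tex and Spata names record where a transcript was first found, and 10 of these genes, with the listed Odf2, are also known from many tissues outside the germ line. Those 11 genes (Tex2, Tex10, Tex261, Tex264, Spata2, Spata2L, Spata5, Spata5l1, Spata7, Spata13 and Odf2) are called the broadly expressed members and are kept apart from the other 44.

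TECs form the stroma in which T cells mature. Medullary TECs transcribe many genes of other organs, testis and ovary among them, at a low level and in a small share of cells each, partly under the regulator Aire, and the peptides are shown to developing T cells. The proteins of spermatids and of the egg coat are textbook examples of antigens that arise, or stay behind a barrier, outside the reach of the immune system.

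The cells were CD45- EpCAM+ cells sorted from K14-CreERT2 Meis1fl/fl mice (Meis1-CKO) and from K14-CreERT2 Meis1fl/+ mice, named WT in the labels and control in this text. Both genotypes carried the tamoxifen-inducible Cre driven by the keratin 14 promoter, were injected with 1 mg of tamoxifen on 3 days at an age of 3 weeks, and were sorted 4 days later. The controls thus had 1 floxed allele and the same drug, Cre reaches only cells in which the keratin 14 promoter is active, and a measured pool is a mixture of all sorted TECs. Each genotype had 2 pools of 6 mice, each on 1 single-colour array: Meis1-CKO 1 shared a slide and a scan with control 1, and Meis1-CKO 2 with control 2.

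Levels are given as the log2 of the processed signal relative to the 75th percentile of the array, so a level of 0 is the 75th percentile itself and a difference of 1 is 2-fold. Signal depends on the probe, so levels are compared between arrays and not between probes. The 75th percentile was 109 and 152 signal units on Meis1-CKO 1 and 2, and 93.2 and 137 units on control 1 and 2. Correlations of Meis1-CKO 2 with the other 3 arrays were 0.85 to 0.88 over all tested probes, against 0.928 to 0.938 among those 3, so that array stood apart. Meis1 itself had 1 probe at -0.44 and -2.08 in Meis1-CKO, against -0.12 and -0.91 in control, and a second at -3.77 and -4.74 against -3.19 and -3.23, above background on the control arrays only. The labels do not say which exons are floxed, so neither probe checks the deletion. Markers of TECs were present on all arrays, with all 12 genes of the list above background on every array. The Y-linked Eif2s3y was at -5.77 and 2.79 in Meis1-CKO and at -1.69 and 1.15 in control, so the pools differed in their make-up by sex.

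Of the 55 genes, 24 had a probe well above background on all 4 arrays, 17 had a best probe above background on 1 to 3 arrays, and 14 had none on any array. By probe, 32 of 88 (36.4%) were above background on all 4 arrays, against 50.6% of all probes, and 29 of 88 (33.0%) on none, against 28.4% of all probes. Per array, 50 and 44 member probes were above background in Meis1-CKO 1 and 2, and 44 and 48 in control 1 and 2. The corresponding percentages were 56.8 and 50 in Meis1-CKO and 50 and 54.5 in control, against 63.0 and 60.8 in Meis1-CKO and 58.0 and 60.9 in control for all probes. Detection of the set was therefore below that of the arrays as a whole on each of the 4 arrays, and its order over the arrays did not separate the genotypes.

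Detection was frequent among the broadly expressed members. That set was drawn up with earlier results of these data known, so its contrast with the other members is a description and not a test. A probe above background on all 4 arrays was found for 9 of those 11 genes and no gene among them was undetected, whereas the other 44 members split into 15 genes on all 4 arrays, 15 on 1 to 3 and 14 on none. The undetected genes were Acr, Akap3, Crisp2, Odf1, Pgk2, Sycp3, Tnp1, Spata3, Spata4, Tex12, Tex13, Tex13a, Tex16 and Tex22. They include the acrosomal protease acrosin (Acr), a major protein of the outer dense fibres of the sperm tail (Odf1), the sperm form of a glycolytic enzyme (Pgk2) and a component of the meiotic chromosome axis (Sycp3). For 11 member probes the signal stood at the scanner software's lower replacement value on all 4 arrays. An undetected probe shows a signal too low for this platform in a pool, not absence, and in a pool fewer cells with a transcript and less RNA per cell cannot be told apart.

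**Figure D1:**
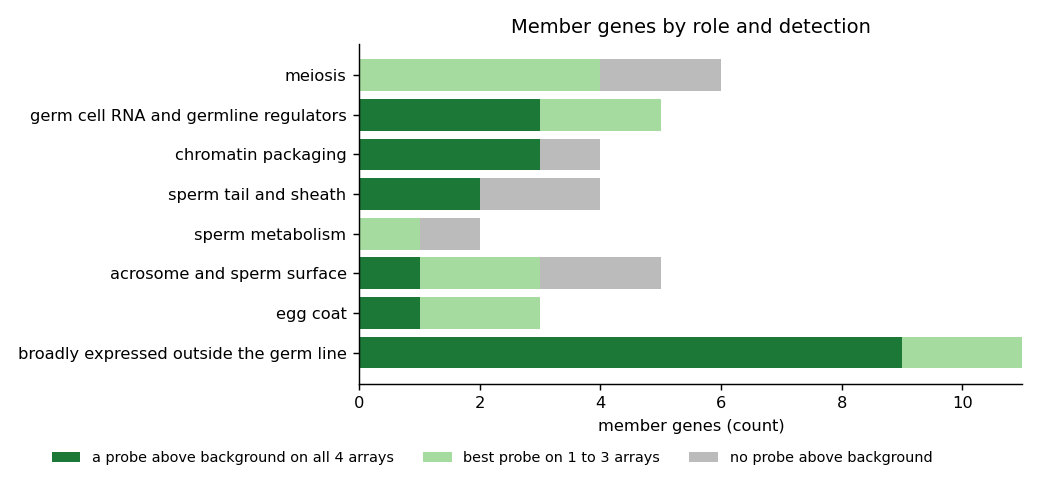
Number of member genes by role (rows) whose best probe was well above background on all 4 arrays, on 1 to 3 arrays or on none; Odf2 counts in 2 rows. All 11 broadly expressed genes were detected on at least 1 array, and none of the 6 meiosis members was detected on all 4.

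Detection differed between the roles, each with few members. Among the 6 members with a role in meiosis (Sycp1, Sycp2, Sycp3, Tex11, Tex12 and Tex15), 0 were above background on all 4 arrays, 4 on some and 2 on none. This does not extend to meiosis genes in general, since 5 of 14 meiosis genes that are not members were above background on all 4 arrays. Of the 4 X-linked members (Tex11, Tex13, Tex13a and Tex16), only Tex11, needed for meiotic recombination, gave a signal above background, at -3.15 in Meis1-CKO 1 and -3.32 in control 2, and it stood at -6.00 in Meis1-CKO 2 and -5.69 in control 1. Its detection thus crossed the genotypes. Among the 4 proteins that replace histones in sperm chromatin, the protamines Prm1 and Prm2 and the transition protein Tnp2 were above background on all 4 arrays and the transition protein Tnp1 on none.

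Across all 4 arrays, limma called 0 of 24266 probes at an adjusted p under 0.05, in either direction (percent called 0), and the member probes were all at an adjusted p of 1. Of the members, 44 probes of 34 genes could be tested, which needs a signal above background on both arrays of a genotype. An unadjusted p under 0.05 was reached by 2 of these 44, the probes of Tex19.2 and Zp2, against 706 of 24266 (2.91%) of all tested probes. Both entered the test through the genotype in which they were higher. The p-value of Tex19.2 rests on signals below background on both control arrays, and that of Zp2 on a signal below background in Meis1-CKO 2. By size, 1 of 44 was at least 2-fold higher with both Meis1-CKO arrays above both control arrays (3.51% of all tested probes), and 3 of 44 were at least 2-fold lower with both below (3.82% of all tested probes). The counts higher and lower were 5 and 2 without Meis1-CKO 2, against 1269 and 1117 of all 24266 tested probes, and 1 and 5 without Meis1-CKO 1, against 2916 and 3750. They were 2 and 5 without control 1, against 1358 and 1688 of all tested probes, and 5 and 5 without control 2, against 2244 and 1969. The counts do not show that the other members were equal, since with 2 arrays a genotype the standard errors of the members ran from 0.43 to 1.29 on the log2 scale.

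The member that was higher was Tex19.2 (NM_027622; probe at chr11:120977794-120977853 of mm9, minus strand), one of a pair of mouse Tex19 genes whose proteins act in the germ line, and in the placenta, to restrain transposable elements. Its level was -1.99 and -1.58 in Meis1-CKO, against -5.66 and -4.54 in control. The probe was well above background on both Meis1-CKO arrays and on neither control array, and the genotypes did not overlap. Set against each control array's lowest signal above background (-3.45 and -3.42), the level in Meis1-CKO was 3.13-fold higher (limma, adjusted p = 1). That value is not a strict minimum, since some probes not above background had higher signals. Examples are Tex16 at -3.09 on control 1 and Tex15 at -3.12 on control 2. The probe entered the test through the Meis1-CKO arrays, where it was high, so a difference between the genotypes follows in part from that filter. With a normexp background correction, which adds an offset to dim signals, the log2 difference was 0.51.

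Its paralogue Tex19.1, which is also known from pluripotent cells, was above background on all 4 arrays. Its level was 1.31 and 0.46 in Meis1-CKO and 1.15 and 1.20 in control, with a difference of -0.29 (SE 0.50, adjusted p = 1) that was positive on slide 1 (0.16) and negative on slide 2 (-0.74). The probes of the pair lie within 31751 bases of each other on opposite strands of chromosome 11. The longest run of bases the 2 probes share is 5, so the probes themselves differ in sequence. Neither probe was compared with the transcript of the other gene, so binding of 1 probe to both transcripts was not tested. The promoters of the pair differ in their content of CG dinucleotides, the site of DNA methylation, which is the known brake on many germ line genes in somatic cells. The 250 bases before the start of each gene are shown for this reason, from RefSeq on GRCm38.p6, with CG in capitals.
Tex19.2, chr11:121118678-121118927, minus strand: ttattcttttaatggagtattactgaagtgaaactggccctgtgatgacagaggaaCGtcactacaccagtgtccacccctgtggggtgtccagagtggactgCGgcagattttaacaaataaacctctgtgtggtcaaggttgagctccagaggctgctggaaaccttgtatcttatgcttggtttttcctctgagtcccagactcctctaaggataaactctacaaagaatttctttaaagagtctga
Tex19.1, chr11:121145893-121146142, plus strand: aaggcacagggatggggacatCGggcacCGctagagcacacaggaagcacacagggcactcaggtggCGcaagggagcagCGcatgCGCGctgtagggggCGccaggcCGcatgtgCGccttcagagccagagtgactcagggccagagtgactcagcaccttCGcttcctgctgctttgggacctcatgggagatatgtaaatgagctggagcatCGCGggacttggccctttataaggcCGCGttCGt
The stretch before Tex19.2 holds 2 CG and that before Tex19.1 holds 15. The first also holds TGACAG, the core letters bound by MEIS proteins, at 205 bases before the start, and the second has these letters on neither strand. In slightly longer stretches around the start, 21.6% of all genes had these letters on either strand. Whether the CG content or these letters bear on the levels of the pair was not tested.

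The other germ line regulators are RNA-binding or bridge proteins. Ddx4 (Vasa), the RNA helicase that marks germ cells, was above background on all 4 arrays at -3.14 and -1.62 in Meis1-CKO and -1.92 and -1.59 in control, with a difference of -0.62 (SE 0.63), of which slide 1 gave -1.22 and slide 2 gave -0.02. Dazl, a translational regulator of germ cells, was at -3.33 and -3.66 in Meis1-CKO and -2.97 and -2.21 in control. Both Dazl values in Meis1-CKO were below both in control, by -0.91 (SE 0.49), with Meis1-CKO 2 not above background, and a second Dazl probe was dim on every array. Tex14, needed for the bridges between dividing germ cells, was at -1.87 and -3.09 in Meis1-CKO and -3.07 and -2.77 in control, a range in which the genotypes overlapped.

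The 3 lower members had their lowest value in Meis1-CKO 2. Zp2, a glycoprotein of the zona pellucida that coats the egg, was at -3.00 and -5.65 in Meis1-CKO, against -1.60 and -1.88 in control, and was above background on 3 arrays but not on Meis1-CKO 2. The difference was -2.59 (SE 0.90; limma, adjusted p = 1), with the value of Meis1-CKO 2 at a signal below background. The first pair of arrays gave -1.40 and the second -3.78. Without Meis1-CKO 2 it was -1.26, and under the normexp correction it was -0.49. A second Zp2 probe, above background on Meis1-CKO 1 and control 1 only and so not tested, was at -3.01 and -4.66 in Meis1-CKO and -2.02 and -3.44 in control. On slide 2 both of its values were below background and have no order, so only slide 1 sets the probes side by side, with the lower value in Meis1-CKO for each. The probes are printed to show that they read separate sequence, with no shared run longer than 5 bases, in neighbouring stretches of chromosome 7 on the minus strand of mm9.
Zp2, tested probe, chr7:127279069-127279225: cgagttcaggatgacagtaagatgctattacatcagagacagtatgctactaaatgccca
Zp2, second probe, chr7:127279266-127279413: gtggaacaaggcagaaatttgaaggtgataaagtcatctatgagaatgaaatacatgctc

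The other egg coat genes crossed zero between slides. For Zp3, another glycoprotein of the coat, the brighter probe was at -0.45 and -2.22 in Meis1-CKO and -2.05 and -0.84 in control. That made the difference 1.61 on slide 1 and -1.38 on slide 2, with 0.12 (SE 0.77) over both. A second Zp3 probe gave 1.62 on slide 1 and -1.12 on slide 2, but it is not independent, since the probes, both on chromosome 5 on the plus strand of mm9, share the 30 bases in capitals.
Zp3, brighter probe, chr5:136464281-136464340: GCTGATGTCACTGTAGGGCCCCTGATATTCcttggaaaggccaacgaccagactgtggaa
Zp3, second probe, chr5:136463460-136464310: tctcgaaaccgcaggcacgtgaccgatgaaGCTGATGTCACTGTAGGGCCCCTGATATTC
Zp1, which cross-links the filaments of the coat, was at -1.60 and -3.50 in Meis1-CKO and -2.54 and -2.70 in control, so both extremes lay in Meis1-CKO, the lower of them below background. Its difference was 0.93 on slide 1 and -0.80 on slide 2.

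Spata9, first described in the testis, was at -1.97 and -4.13 in Meis1-CKO and -1.61 and -1.30 in control, a difference of -1.60 (SE 0.78, adjusted p = 1). The Spata9 probe was not above background on Meis1-CKO 2, so the size of its difference rests on a dim signal. Spata19, a mitochondrial protein of the sperm midpiece, was at -1.11 and -2.91 in Meis1-CKO and -0.52 and -1.04 in control, a difference of -1.23 (SE 0.70, adjusted p = 1). For both genes the Meis1-CKO arrays lay below the control arrays, and the gap came mostly from Meis1-CKO 2. Without that array the differences were -0.52 for Spata9 and -0.33 for Spata19, under 2-fold in each case, and under the normexp correction they were -0.46 and -0.54. The second Spata9 probe was not above background on any array. Spata18 had a similar shape, at -2.40 and -5.66 in Meis1-CKO and -1.89 and -3.21 in control, with Meis1-CKO 2 not above background, though its genotypes overlapped.

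**Figure D2:**
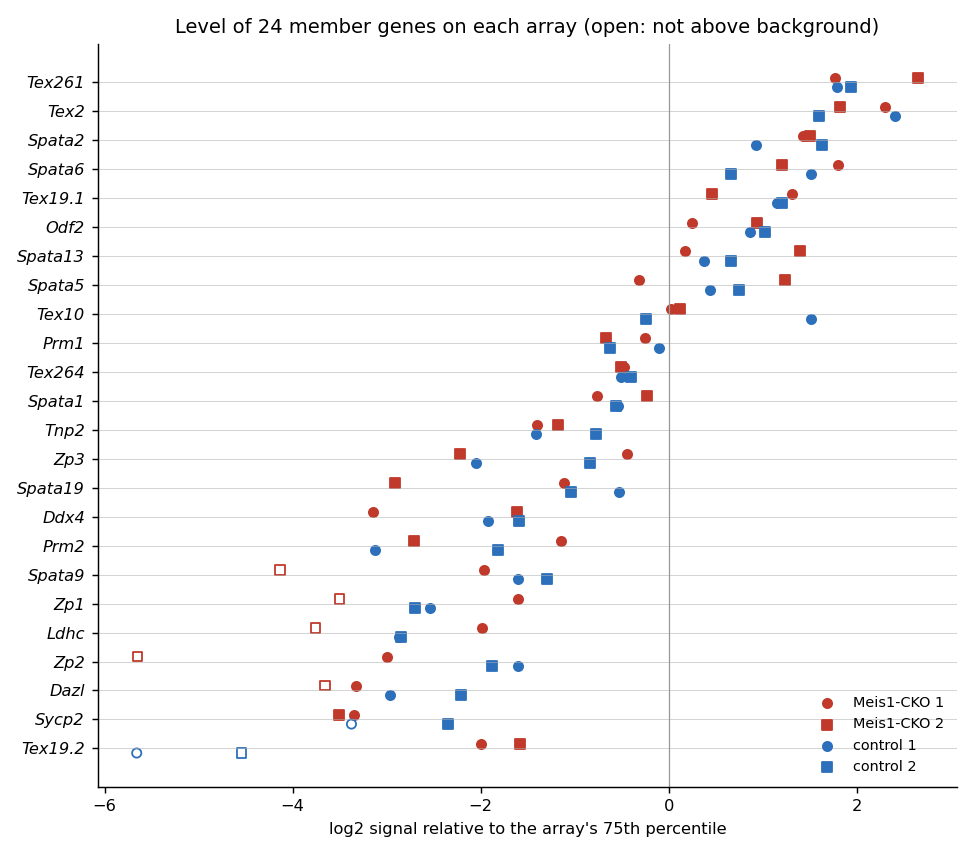
Log2 signal relative to the 75th percentile of the array (x axis) for the brightest tested probe of 24 members, on Meis1-CKO 1 and 2 (red) and control 1 and 2 (blue); circles are slide 1, squares slide 2, open symbols not well above background, and the order of rows reflects probe signal and not abundance. Tex19.2 had both Meis1-CKO arrays at -1.99 and -1.58 and both control arrays open at -5.66 and -4.54, and Zp2 had its lowest value, -5.65, in Meis1-CKO 2.

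Of the 4 proteins of sperm chromatin, 3 gave signals on all arrays. The brightest Prm1 probe was at -0.25 and -0.66 in Meis1-CKO and -0.11 and -0.63 in control, a difference of -0.09 (SE 0.47). Tnp2 was at -1.40 and -1.18 in Meis1-CKO and -1.42 and -0.78 in control, a difference of -0.19 (SE 0.47). Prm2 spread more, at -1.15 and -2.71 in Meis1-CKO and -3.13 and -1.82 in control, and its difference of 0.54 (SE 0.74) was 1.98 on slide 1 and -0.89 on slide 2. None of the 3 separated the genotypes. Their probes lie within 8177 bases on the minus strand of chromosome 16 (mm9; Tnp2 at chr16:10788572-10788631, Prm2 at chr16:10791549-10791608, brightest Prm1 probe at chr16:10796597-10796748). Socs1, an inhibitor of cytokine signalling at the edge of this cluster, was at 1.17 and 0.96 in Meis1-CKO and 1.58 and 0.91 in control.

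The Prm1 probes did not agree in detection. One of the other 2 was above background on 3 arrays, at -3.61 and -3.03 in Meis1-CKO and -2.76 and -4.93 in control, and the third on 1 array of each genotype. The brightest probe, printed for its composition, has a GC content of 70%, against a median of 40% over all probes and a range of 31.7 to 55% from the 5th to the 95th percentile. Its runs of CG-rich arginine codons are those of the protamine itself.
Prm1, brightest probe, minus strand: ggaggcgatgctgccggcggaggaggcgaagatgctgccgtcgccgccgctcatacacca

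Among structural and metabolic genes of sperm, Ldhc, the sperm form of lactate dehydrogenase, was at -1.99 and -3.76 in Meis1-CKO and -2.86 and -2.84 in control, a difference of -0.02 (SE 0.68), with Meis1-CKO 2 not above background. Its difference was 0.88 on slide 1 and -0.92 on slide 2, so the mean hides opposite values. Sycp2, a component of the synaptonemal complex, was at -3.35 and -3.51 in Meis1-CKO and -3.38 and -2.34 in control, a difference of -0.57 (SE 0.53), with control 1 not above background. A second Sycp2 probe, above background on Meis1-CKO 2 only and not tested, ran the other way, at -3.63 and -3.16 in Meis1-CKO and -5.56 and -4.33 in control, and the remaining one was above background on no array. Sycp1, which forms the transverse filaments of that complex, was above background on control 1 alone, at -2.72, and Tcp11, a sperm motility protein, on 1 array of each genotype. Tex101, a surface protein of germ cells, was at -2.43 and -2.84 in Meis1-CKO and -3.26 and -2.21 in control. The tested probes of Ldhc, Sycp2 and Tex101 thus overlapped between the genotypes.

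Odf2 differs from the sperm tail proteins around it, since it also builds the appendages of centrioles in other cells, and 3 of its 4 probes were above background on all arrays. The brightest of these was at 0.24 and 0.94 in Meis1-CKO and 0.87 and 1.03 in control. The differences of the 3 probes were -0.36, 0.54 and 0.10, so they did not agree in sign. The remaining probe, designed to the transcript AK086843 within the same locus, stood at 2.18 in control 2 and between -5.76 and -4.72 on the other 3 arrays. It rests on 1 array, was not tested, and no other Odf2 probe followed it.

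The group median of the broadly expressed members depended on how probes were counted. Over their probes above background on all 4 arrays it was 0.02 and 0.21 in Meis1-CKO and 0.33 and 0.19 in control. With 1 tested probe per gene it was 0.18 and 1.24 in Meis1-CKO and 0.87 and 0.75 in control. Tex261, a protein of the early secretory pathway, was at 1.76 and 2.66 in Meis1-CKO and 1.79 and 1.94 in control. A second Tex261 probe was at -1.03 and -1.99 in Meis1-CKO and -2.10 and -2.40 in control, so its arrays were separated, by 0.74 (SE 0.52, adjusted p = 1). Tex2, a lipid-binding protein of the endoplasmic reticulum, was at 2.30 and 1.82 in Meis1-CKO and 2.41 and 1.60 in control. Spata2, an adaptor of the deubiquitinase CYLD, was at 1.43 and 1.50 in Meis1-CKO and 0.93 and 1.63 in control. The differences of the brightest probes, 0.34, 0.06 and 0.18, were each within 1 standard error, which ranged from 0.48 to 0.51.

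Tex264, a receptor for the autophagy of endoplasmic reticulum, was at -0.47 and -0.51 in Meis1-CKO and -0.50 and -0.40 in control. Spata5, an ATPase of ribosome maturation, was at -0.32 and 1.24 in Meis1-CKO and 0.44 and 0.75 in control. Spata13, an exchange factor for small GTPases, was at 0.18 and 1.40 in Meis1-CKO and 0.37 and 0.66 in control. For both genes the Meis1-CKO arrays lay on either side of the control arrays. Spata2L, above background on the slide 2 arrays only and not tested, was at -3.46 and -1.78 in Meis1-CKO and -3.20 and -3.04 in control. Tex10, a nuclear protein of ribosome biogenesis, had differences of -0.57, 0.08 and -0.24 in 3 probes, the first of them due to a value of 1.51 in control 1. Spata6, known for the sperm connecting piece, had 2 probes in the same direction (0.41 and 0.32), each within its standard error, while Spata1 differed by 0.06 (SE 0.46).

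Read across slides, the tested member probes were scattered in opposite directions. The median difference over the 44 probes was 0.06, against -0.03 over all tested probes. On slide 1 the median was 0.08 with 25 of 44 higher in Meis1-CKO, against 0.02 and 51.2% of all tested probes, and on slide 2 it was -0.16 with 15 of 44 higher, against -0.10 and 45.0%. Only 16 of the 44 (36.4%) had the same sign on both slides, against 47.4% of all tested probes. The share of members with an opposite sign was thus no smaller than that of the arrays as a whole, and the differences of all tested probes on the 2 slides had a correlation of 0.0164.

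**Figure D3:**
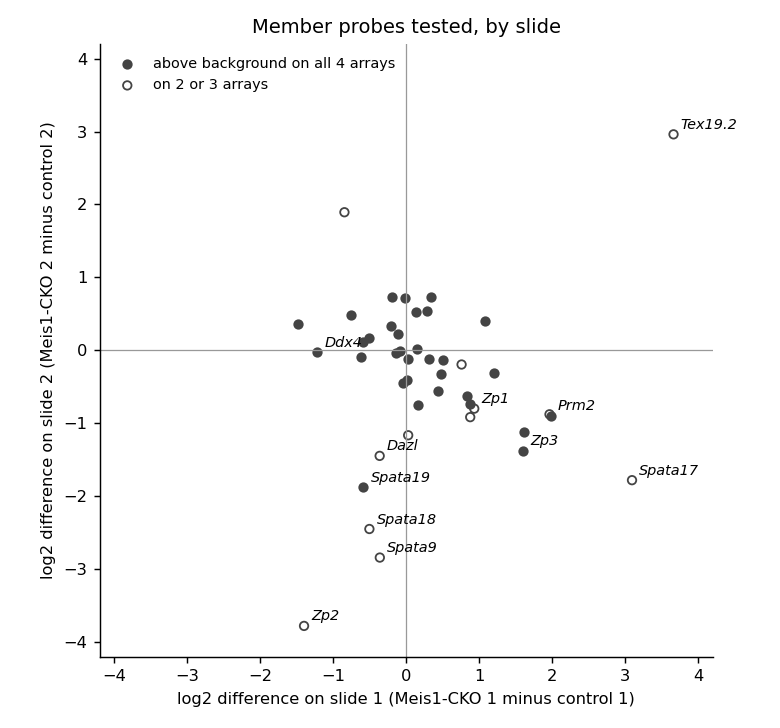
Log2 difference of the 44 tested member probes on slide 1 (x axis, Meis1-CKO 1 minus control 1) and on slide 2 (y axis, Meis1-CKO 2 minus control 2); filled points were above background on all 4 arrays, open points on 2 or 3. Tex19.2 lies alone at the upper right, where its control values were below background and its position is not exact, Zp2 lies at the lower left (-1.40 and -3.78), and Zp3, Prm2 and Spata17 are positive on slide 1 and negative on slide 2.

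The split between slides was seen in the members outside the broadly expressed set. Over their 17 probes above background on all 4 arrays, the median difference was 0.17 on slide 1, with 11 higher in Meis1-CKO, and -0.33 on slide 2, with 5 higher. Over the 15 such probes of the broadly expressed members it was -0.02 on slide 1, with 7 higher, and 0.02 on slide 2, with 8 higher. Of all probes above background on all 4 arrays, 49.0% were higher on slide 1 (median -0.01) and 45.3% on slide 2 (median -0.09). Median levels of the 17 probes were -1.11 and -2.16 in Meis1-CKO and -1.57 and -1.04 in control, so Meis1-CKO 2 was the lowest array. The 15 probes gave brighter signals, with medians from 0.02 to 0.33, and a part of probe brightness in the split was not tested. Among the 11 member probes above background on exactly 3 arrays, 6 missed Meis1-CKO 2 (54.5%, against 34.7% of all such probes) and 4 missed control 1 (36.4%, against 40.7%). Control 2 was missed by 1 (9.1%, against 14.2%) and Meis1-CKO 1 by 0 (0%, against 10.4%). Over all such probes control 1 was thus the array missed most often, and the member counts are small.

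Other groups of genes also differed between these arrays. A list labelled Aire-dependent antigens had 11 tested genes: Ins2, Spt1, Mup1, Mup4, Csn2, Fabp9, S100a8, Sult1c2, Fgb, Sst and Gad1. Their dependence on Aire was not tested here. Their median difference was 0.36 on slide 1 and -1.03 on slide 2, with 8 and 0 genes higher in Meis1-CKO. For 18 tested genes of motile cilia it was 0.63 on slide 1 and -1.14 on slide 2, with 13 and 3 higher. The 12 TEC markers had medians of -0.13 and -0.70 on the slides, and 11 markers of mature medullary TECs had 0.05 and -0.25, with 7 and 5 higher in Meis1-CKO. Aire, of the second list, was at 3.03 and 2.37 in Meis1-CKO and 2.50 and 4.59 in control. Of 15 myeloid and dendritic markers, 12 were above background on all arrays and none was undetected, with median levels of -0.28 and 2.79 in Meis1-CKO and 0.28 and 0.17 in control. The log2 of their summed signal was 5.44 and 7.19 in Meis1-CKO and 5.27 and 5.58 in control. Thymocyte markers, 11 of 16 above background on all arrays, had median levels of -1.83 and 0.78 in Meis1-CKO and -0.53 and -0.92 in control, and a log2 summed signal of 2.84 and 5.52 in Meis1-CKO and 5.68 and 4.30 in control. The part of TEC content, leukocyte RNA or array in the low member values of Meis1-CKO 2 was not tested. Without Meis1-CKO 2 the median difference of the tested member probes was 0.14.

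**Figure D4:**
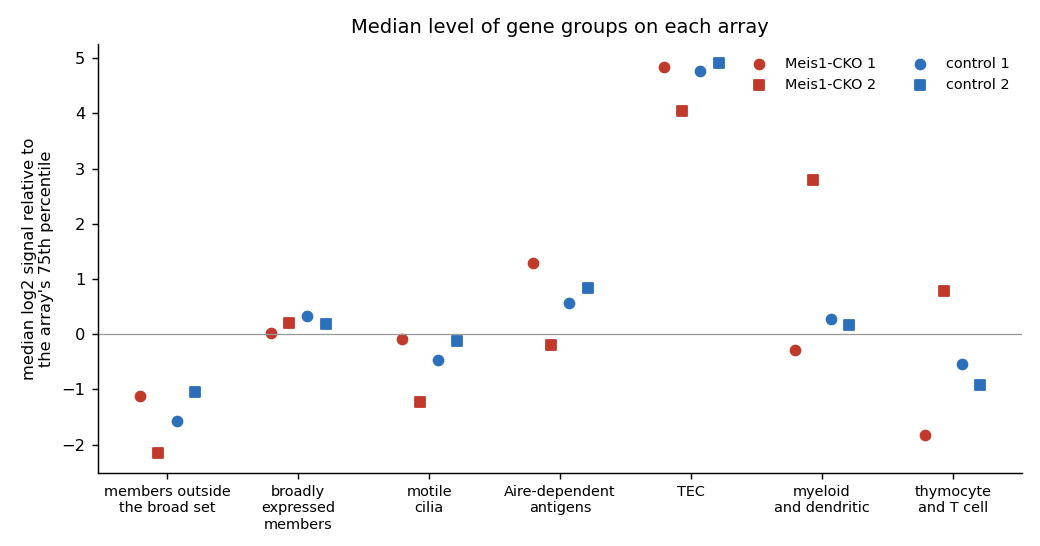
Median log2 signal relative to the 75th percentile of the array (y axis) of 7 gene groups (x axis) on Meis1-CKO 1 and 2 (red) and control 1 and 2 (blue); members are probes above background on all 4 arrays, the other groups are tested genes. Members outside the broadly expressed set were lowest on Meis1-CKO 2 (-2.16), where myeloid and dendritic markers were highest (2.79). Broadly expressed members ran from 0.02 to 0.33 by probe as drawn, and from 0.18 to 1.24 with 1 tested probe per gene.

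The other germ line genes of the arrays, taken from 4 lists of textbook genes that are not members, were also detected in part. Above background on all 4 arrays were 5 of 14 meiosis genes, 4 of 15 genes of the piRNA pathway and germ cell regulation, 9 of 28 sperm genes and 6 of 14 oocyte genes, and limma called 0 genes of each list. The meiosis list thus differed from the 6 meiosis members, of which 0 were above background on all 4 arrays. Stra8, which triggers entry into meiosis, was at 2.68 and 1.70 in Meis1-CKO and 1.88 and 2.34 in control. Dppa3, a maternal factor that protects DNA methylation, was at 4.94 and 3.17 in Meis1-CKO and 4.51 and 4.26 in control. Median differences on slides 1 and 2 were 0.44 and -0.64 for meiosis, 0.51 and -0.59 for the piRNA group, 0.04 and -1.04 for sperm and 0.33 and -0.20 for oocyte genes. The sign was positive on slide 1 and negative on slide 2 in each list.

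What the detected members share was looked for in their promoters, 300-base windows from 250 before to 50 after the RefSeq start, which were given for 45 of the 55 genes. The median number of CG dinucleotides was 19 for members detected on all 4 arrays, 13 for those on 1 to 3 and 7 for those on none, against 8 over the 27025 genes of the table. This order came with the broadly expressed members, whose median was 28.5, and the other members on all 4 arrays had a median of 11.5. The broadly expressed set was drawn up with earlier results known, so this split is a description only. Single genes departed from it: Prm1, Prm2 and Tnp2, detected on all 4 arrays, had 1, 3 and 4 CG, and the undetected Tnp1 had 6. Windows with TGACAG on either strand were found in 11 of 45 members (24.4%), against 21.6% of all genes. They made up 2 of 23 (8.7%) of the members on all 4 arrays, 6 of 12 (50%) of those on 1 to 3, Tex19.2 among them, and 3 of 10 (30%) of those on none. All genes of the table were not split by detection, so neither the CG medians nor these shares have a matching reference. The palindrome TGACGTCA, the full site of the CREB family to which the spermatid regulator CREM belongs, was found in 1 member window, that of Spata7, against 2.03% of all genes.

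**Figure D5:**
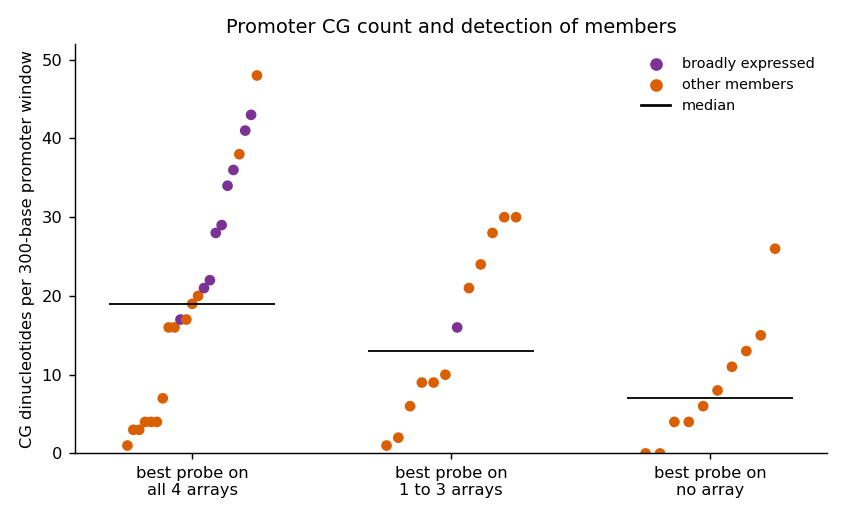
Number of CG dinucleotides per 300-base promoter window (y axis) for 45 members, by the number of arrays on which the best probe was above background (x axis); purple points are broadly expressed members, orange points the others, and bars are medians. The medians of 19, 13 and 7 overlap widely between single genes, and the broadly expressed members lie at 16 or more.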

How the data were processed

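RNA of 4 pools of sorted mouse TECs, 2 Meis1-CKO and 2 control, was amplified and hybridised to 1-colour (Cy3) Agilent arrays, 1 array a pool. The deposited scanner output holds linear intensity values, which, per the file headers, had the background subtracted but no scaling between arrays, with surrogates in place of the lowest signals. Agilent Feature Extraction 9.5.3.1 was used, per the submitters' processing notes. Log2 values make up the deposited value table. Its column-to-column differences matched those computed here (slope 1, correlation 1, 20818 probes), and each row is centred on its median; column medians were -0.06 and -0.12 for Meis1-CKO 1 and 2 and 0.04 and 0.09 for control 1 and 2. It was used as an alternative.

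Signals were put on the log2 scale after division by the 75th percentile of the 43379 non-control spots of their array. Between 63 and 78 outlier spots an array were left out, none of them of a member, no spot was saturated, and spots of 1 probe were averaged. The 24266 probes with both arrays of a genotype above background were tested with limma 3.58.1 in R 4.3.3 (lmFit, eBayes, no block) with Benjamini-Hochberg adjustment over all of them at 0.05. The fit had 2 residual degrees of freedom, 5.71 after moderation, so the number of arrays limits the precision. The fit was tested on simulated data. Probes of a gene were kept apart, and the tested probe with the highest mean stood for the gene in differences.

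All 20 listed genes were described, with a difference for those tested. Of the Tex and Spata genes, differences were given for the 10 with the highest mean level and for up to 6 in each direction with separated arrays and at least a 2-fold difference, and other members are mentioned after their values were seen. The members, role lists and marker lists were chosen with earlier results of these data known. RefSeq gave a symbol for 77 of the 88 member probes; probe coordinates are on mm9, promoters on GRCm38.p6. Replicate number and slide coincide. Deviations of same-numbered arrays from the genotype means had a correlation of 0.138, and the labels tie the numbers to no shared day or litter. Alternatives were quantile normalization, normexp background correction with an offset of 50, other filters on dim probes, 1 probe a gene, the deposited value table, a replicate block and leaving out each array. The pools came from separate mice, in 2 independent experiments per the labels.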

Additional observations from a re-analysis of the deposited data

How the results depend on the processing

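Under all 7 alternatives, limma called 0 probes in either direction. The smallest limma adjusted p of a named member was 0.728, with no filter on dim probes. Leaving out an array left a single array in a genotype, so those fits are described by the size of their differences only. With the replicate block as a term, 0 probes were called. The member counts and differences cannot change under that term, since both genotypes have an array of each replicate number. Against 1 member probe higher and 3 lower by at least 2-fold with separated arrays, where 852 and 927 of all 24266 tested probes met the rule, the normexp correction gave 0 and 0 (111 and 46 of all). The restriction to probes above background on all 4 arrays gave 0 and 1 (346 and 465 of 20818), and no filter on dim probes gave 3 and 8 (1408 and 2098 of 41174). Leaving out 1 array gave 1 to 5 higher and 2 to 5 lower (1269 to 2916 and 1117 to 3750 of 24266). The median difference of the tested members ran from -0.12 to 0.14 when 1 array was left out. Under every alternative it moved by less than the spread between replicates (0.45), a wide margin beside the main value of 0.06. Its sign turned with normexp (-0.03), with no filter on dim probes (-0.11) and with 1 probe a gene (-0.03), and stayed positive under the other alternatives. Ldhc changed sign, to 0.039 with quantile normalization and 0.00035 with normexp; the cause was not tested. Leaving out each array in turn turned the sign of 17 of the 24 named members, whose differences were all short of the threshold. The share of such turns over all tested probes was not counted, so 17 has no reference. Lowest and highest values were -1.39 and 0.14 for Ddx4, -0.90 and 0.87 for Ldhc, -0.35 and 0.17 for Prm1, -0.24 and 1.32 for Prm2, -0.21 and 0.33 for Spata1, -0.34 and 0.88 for Spata13, -0.17 and 0.53 for Spata2, -0.92 and 0.64 for Spata5, -0.015 and 0.84 for Spata6, -1.44 and 0.31 for Tex10, -0.72 and 0.14 for Tex19.1, -0.35 and 0.46 for Tex2, -0.10 and 0.79 for Tex261, -0.10 and 0.010 for Tex264, -0.51 and 0.13 for Tnp2, -0.88 and 1.01 for Zp1, -0.77 and 1.00 for Zp3.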
